A study of Homo sapiens with 6 samples.

Results

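The machinery that loads, docks and fuses synaptic vesicles was examined through 40 genes chosen by name, out of 18132 genes that had at least 1 probe set annotated to a single symbol. A probe set is a group of short oligonucleotides on the array that read 1 transcript region. All 40 genes were found, with 118 probe sets between them, and the brightest probe set by its mean over 6 arrays stood for each gene. For 33 of the 40 that probe set was brighter than the lowest 40% of probe sets on 3 or more arrays, and these 33 were tested. The other 7, SV2B, SV2C, SNAP23, STXBP5, CADPS, CADPS2 and RAB27B, were too dim to test and are described by their values. Levels are log2 signals from RMA (robust multi-array average), so a difference of 1 is a doubling, and levels of different probe sets cannot be set against each other.

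SH-SY5Y cells are a human neuroblastoma line of sympathetic, neuron-like character. The exposed group held 3 arrays, manganese 1 to 3, from cells given 100 µM manganese for 24 h, a dose the labels state as the median lethal concentration divided by 5. The comparison group held 3 arrays, control 1 to 3, from untreated cells. Both groups grew in a mix of MEM and F12 with 10% fetal bovine serum, and the labels call the arrays biological replicates without saying whether cultures were started separately, so p-values measure only the spread between these arrays. All cells came from 1 line, in which release-related genes can differ from those of primary neurons.

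Neurons and neuroendocrine cells keep transmitter in vesicles whose membranes carry synaptophysin, SV2 proteins and the calcium sensor synaptotagmin. Synapsins tether the vesicles to each other and to the cytoskeleton, and Rab3 GTPases help bring them to the active zone, where scaffold and priming proteins (Bassoon, Piccolo, RIM, Munc13 and CAPS) prepare them. Fusion is driven by SNARE proteins that zip together, VAMP on the vesicle with syntaxin and SNAP-25 on the plasma membrane, and NSF with its SNAP adaptors pulls the spent complexes apart. In SH-SY5Y cells this apparatus serves the release of catecholamines and peptides.

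The arrays carried the identity the labels give. All 8 noradrenergic neuroblastoma markers that were found passed the filter, and their mean level was at most 11.06 in manganese and at least 11.08 in control, while 2 further listed markers were not analysed here. Of the 8, ISL1 differed most, at -0.58, or -0.26 against control 2. DBH, GATA3, GATA2 and HAND2 were at -0.13 to -0.03, and PHOX2A, TH and MYCN at 0.01 to 0.22. Glial markers averaged 4.69 to 4.80 in manganese and 4.72 to 4.79 in control, and immune markers 4.52 to 4.64 in manganese and 4.38 to 4.51 in control, both little above the filter level (4.37 to 4.40). The mesenchymal or fibroblast list, with 6 of 8 markers above the filter, averaged 5.68 to 5.77 in manganese and 5.53 to 5.79 in control, with 3 of the 6 positive and 3 negative. Within it VIM, the intermediate filament vimentin, named after its values were seen, read 11.33, 11.02 and 11.40 in manganese, against 10.71, 10.50 and 10.21 in control. Its groups were separate, with a difference of 0.77 (limma adjusted p 0.152), or 0.75 against control 2, and its part in the members' values was not tested. Control 1 was the least like the other 5 arrays, with Pearson correlations of 0.967 to 0.981 across the 13403 tested genes, and it lay above or below all of them for 20 of the 33 members (60.6%, against 64.9% of all tested genes), 8 above and 12 below. The 12 probe sets of the poly(A) spike-in control, added before labelling, averaged 7.80 to 7.91 in manganese and 7.79 in control 2, against 6.14 in control 1 and 5.81 in control 3. The part of these differences in the results was not tested, so differences of the tested members are also given against control 2 alone, a comparison of 3 arrays with 1 that is used here as a description.

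No member of the exocytosis machinery passed the test in manganese-exposed cells, at a limma adjusted p under 0.05 over all genes. The smallest adjusted p among the 33 was 0.206, that of BSN, while 0.142% of all tested genes passed. At an unadjusted p under 0.05, 5 members were lower (15.2%, against 6.84% of all tested genes) and 3 were higher (9.09%, against 5.98%). The lower ones were BSN, UNC13B, SNAP25, UNC13A and SYT4, and the higher ones SYN2, SYPL1 and SYN1. Groups did not overlap for 5 members on the higher side and 5 on the lower side, 15.2% each, beside 10.5% and 9.26% of all tested genes. The median change over the 33 was -0.02 on the log2 scale, with 14 members positive and 19 negative, and over all tested genes it was 0.02. With array weights from the default estimate, which did not converge and gave control 3 a weight of 8.23, 17 members (51.5%) and 29.5% of all tested genes passed. With gene-by-gene weights 5 members passed (15.2%: BSN, RAB3C, SYPL1, UNC13A and UNC13B), and 5.91% of all tested genes. In RNA from whole cultures, fewer cells that express a gene and less RNA per cell cannot be told apart.

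**Figure D1:**
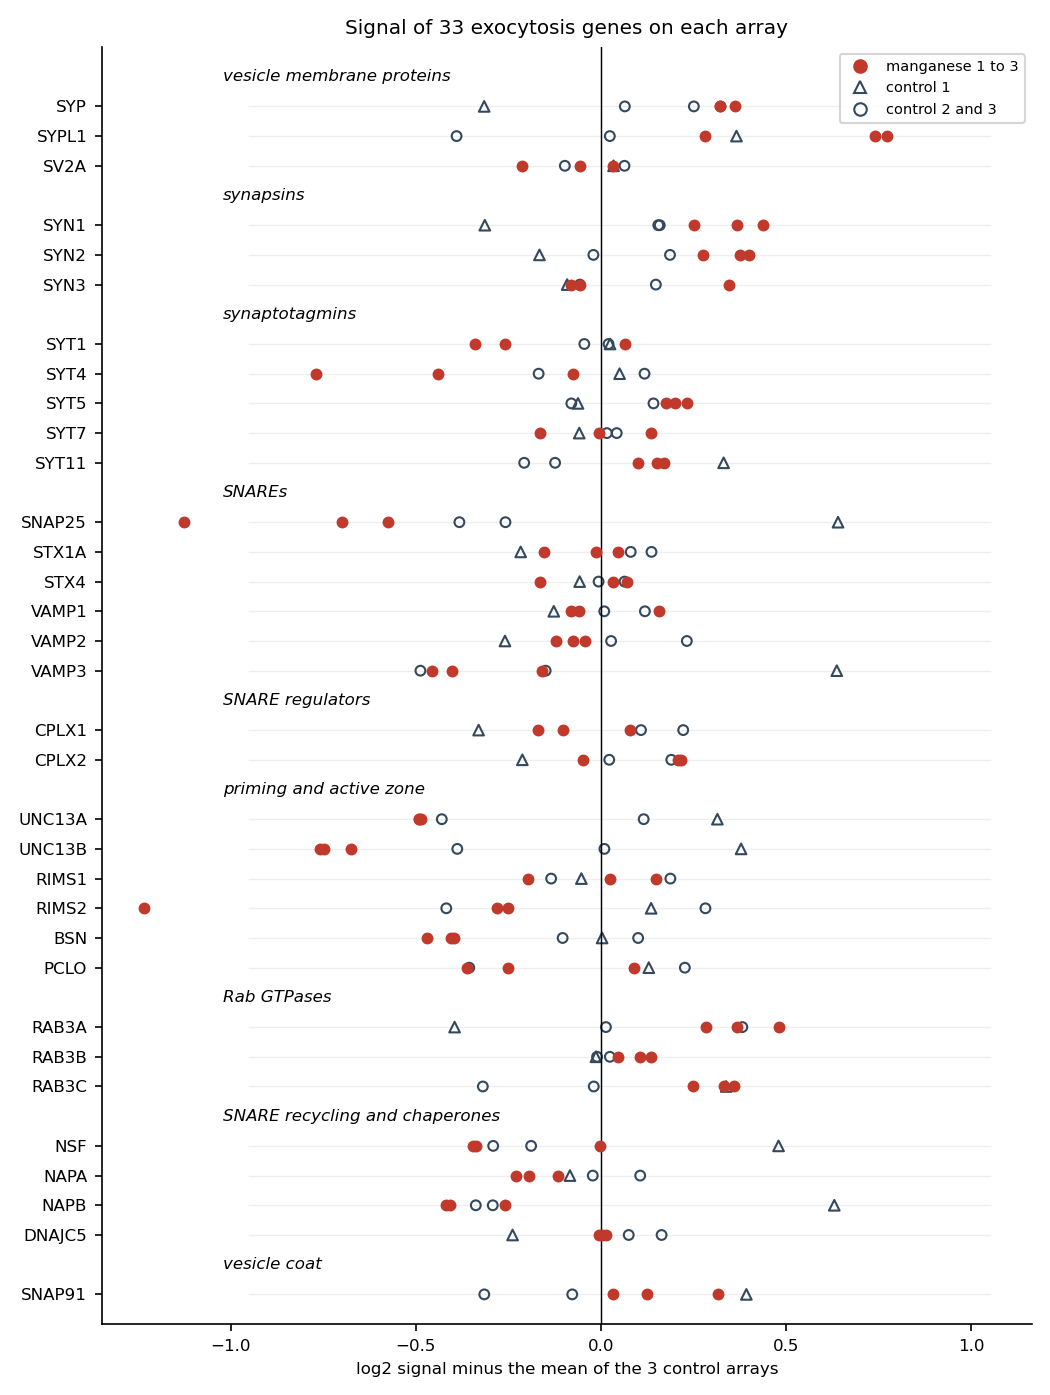
Log2 signal of each of the 33 tested members (rows, grouped by role) on the 6 arrays, as the difference from the mean of the 3 control arrays (x axis, log2). Filled points are the manganese arrays, the open triangle is control 1 and open circles are controls 2 and 3. All 6 tested members of priming and the active zone have negative mean changes, and control 1 is often the outermost point of a row.

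The tested members of vesicle priming and of the active zone leaned lower, although none passed the test. All 6 that were tested had negative differences, with a median of -0.46 and a range of -0.73 to -0.01. Of the 6, 3 had separate groups on the lower side (50%, against 9.26% of all tested genes). Control 1 was the highest of all arrays for UNC13A and UNC13B, but not for BSN. Against control 2 alone the median of the 6 was -0.12, with 4 negative and 2 positive.

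BSN encodes Bassoon, a very large scaffold protein of the presynaptic active zone. Its signal was 7.12, 7.20 and 7.19 on the manganese arrays, against 7.60, 7.49 and 7.69 on control 1, 2 and 3. The 3 manganese arrays lay close together and below every control, and control 1 was not the extreme one. The change was -0.42 (SE 0.10, 95% interval -0.66 to -0.18, limma adjusted p 0.206), or -0.32 against control 2. BSN had a single probe set, so no second reading exists.

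UNC13B encodes Munc13-2, a priming factor that opens syntaxin for SNARE assembly. It read 7.39, 7.47 and 7.38 in manganese, against 8.52, 7.75 and 8.15 in control. The exposed arrays were tightly grouped and the controls were spread, with control 1 highest and control 2 nearest to manganese. The change was -0.73 (SE 0.18, interval -1.15 to -0.30, adjusted p 0.216), which is 0.604 times the control level, and -0.34 against control 2. A second bright probe set gave -0.76 with separate groups as well, while 2 dim ones gave -0.06 and -0.0024.

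UNC13A encodes Munc13-1, the main priming factor of most central synapses. It read 5.36, 5.37 and 5.36 in manganese, against 6.17, 5.43 and 5.97 in control. Here control 2 was within 0.06 of the manganese mean and the difference came from controls 1 and 3. The change was -0.49 (SE 0.18, adjusted p 0.350), and against control 2 it was -0.06. UNC13A and UNC13B thus both had separate groups on the lower side, but only UNC13B and BSN kept a difference of at least 0.3 against control 2.

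RIMS2, a RIM scaffold that recruits Munc13 and calcium channels, read 3.70, 4.69 and 4.66 in manganese, against 5.07, 4.52 and 5.22 in control. Its groups overlapped, and manganese 1 was well below the other arrays. The change was -0.59 with an SE of 0.29 (adjusted p 0.431), and -0.17 against control 2. PCLO, which encodes Piccolo, the partner of Bassoon, differed by -0.17 and turned to 0.18 against control 2, and RIMS1 differed by -0.01, or 0.13 against control 2. CADPS encodes CAPS1, a priming factor for dense-core granules. Its brightest probe set read 4.14, 3.93 and 4.17 in manganese, against 6.06, 4.36 and 4.53 in control, and passed the filter on too few arrays to be tested. A dimmer CADPS probe set gave -0.44, but it passed the filter only through the control arrays, so its lower reading in manganese adds nothing to the other genes. Against control 2 both were at -0.28. CADPS2 was at 3.29 in manganese and 3.39 in control, below the filter level on all arrays.

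**Figure D2:**
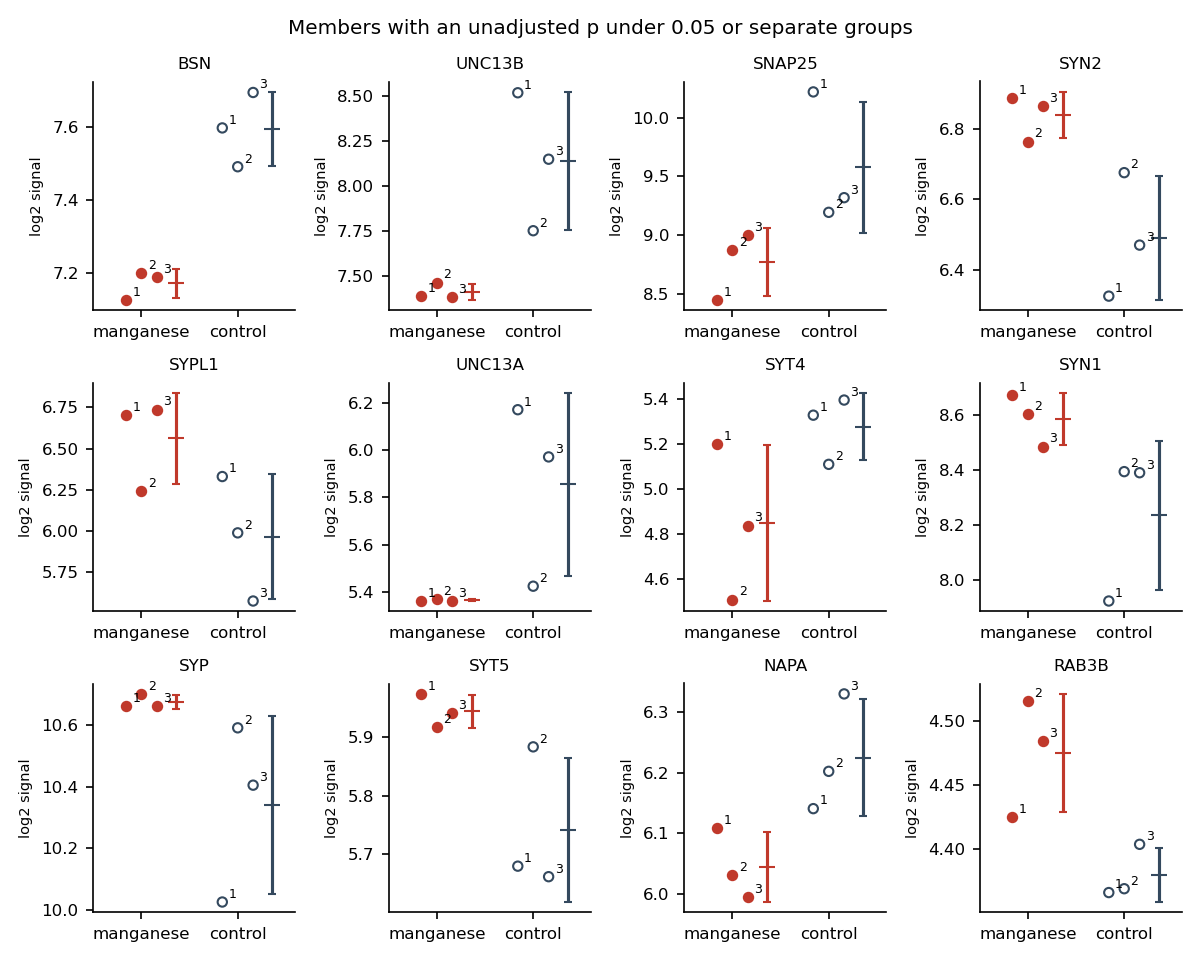
Log2 signal of the 12 members with an unadjusted p under 0.05 or with separate groups, on the manganese arrays (left, filled) and control arrays (right, open), numbered by replicate. Bars beside the points are the mean and SD of the 3 arrays of a group. Each panel has its own y axis, which does not start at 0. In UNC13B, SNAP25 and UNC13A the controls spread widely, whereas in BSN both groups are compact.

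The promoters of 4 members are shown. BSN, UNC13B and UNC13A are the tested active zone and priming genes with separate groups on the lower side. SYN1 is 1 of 2 synapsins with separate groups on the higher side, and SYN2, the other, is not shown. The promoters are RefSeq windows of 250 bases before to 50 bases after the transcript start, on GRCh38.p14. BSN lies on the plus strand at chr3:49554227-49554526, UNC13B on the plus strand at chr9:35161759-35162058, UNC13A on the minus strand at chr19:17688305-17688604 and SYN1 on the minus strand at chrX:47619808-47620107. Capitals mark exact matches, on either strand, to the GC box GGGCGG, the cAMP response element TGACGTCA and its core TGACG (contained in the full element), and the left arm TTCAGCACC and right arm GGACAGC of RE1, the element bound by the neuronal repressor REST.
BSN: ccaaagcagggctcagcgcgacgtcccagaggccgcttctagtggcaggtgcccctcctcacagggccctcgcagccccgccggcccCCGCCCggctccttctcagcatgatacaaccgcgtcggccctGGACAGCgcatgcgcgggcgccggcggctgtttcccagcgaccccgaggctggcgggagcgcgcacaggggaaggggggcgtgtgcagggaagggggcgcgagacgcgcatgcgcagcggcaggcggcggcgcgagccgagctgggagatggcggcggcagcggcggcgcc
UNC13B: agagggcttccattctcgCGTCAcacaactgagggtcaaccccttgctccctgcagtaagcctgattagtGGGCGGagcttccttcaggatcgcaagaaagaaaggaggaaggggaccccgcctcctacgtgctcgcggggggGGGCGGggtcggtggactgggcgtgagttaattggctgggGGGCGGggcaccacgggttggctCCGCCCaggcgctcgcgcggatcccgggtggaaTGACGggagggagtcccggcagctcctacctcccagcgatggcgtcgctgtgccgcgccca
UNC13A: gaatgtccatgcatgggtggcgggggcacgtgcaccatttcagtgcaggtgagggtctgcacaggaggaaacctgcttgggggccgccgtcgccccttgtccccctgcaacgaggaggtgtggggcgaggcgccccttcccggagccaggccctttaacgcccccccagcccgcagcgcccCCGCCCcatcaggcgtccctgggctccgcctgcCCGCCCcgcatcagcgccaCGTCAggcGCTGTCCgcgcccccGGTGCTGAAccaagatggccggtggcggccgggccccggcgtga
SYN1: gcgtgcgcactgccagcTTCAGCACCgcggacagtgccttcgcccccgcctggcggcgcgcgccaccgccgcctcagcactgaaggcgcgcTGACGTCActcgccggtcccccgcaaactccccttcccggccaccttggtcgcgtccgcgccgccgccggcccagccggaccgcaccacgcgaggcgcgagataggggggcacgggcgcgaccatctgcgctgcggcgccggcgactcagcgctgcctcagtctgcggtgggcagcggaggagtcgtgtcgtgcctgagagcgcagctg

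The left RE1 arm was present in SYN1 and UNC13A, 2 of the 34 member promoters in the table (5.88%), against 0.376% of 35116 promoters of the same length. The right arm was in UNC13A, BSN and RAB3C (8.82%, against 6.03%). Only exact matches were counted. In SYN1 the left arm is followed by gc and then ggacagt, which differs from the right arm in its last base. In UNC13A both arms lie on the strand opposite to the printed one, with gcgccccc between them. SYN1 also held the only full cAMP response element among the members (2.94%, against 1.85%), and 13 members held its core (38.2%, against 24.6%). A GC box was in 25 member promoters (73.5%, against 45.0% of all), and the TATA box letters TATAAA were in 0 of the 34, against 11.5% of all promoters. The SYN2 promoter, not printed, held 4 GC boxes and no RE1 arm or cAMP response element core. The median GC content was 68.3% in the members and 58.7% over all promoters. These matches are descriptions of letters. Whether any of them has a part in the members' values was not tested.

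Among the SNARE genes, SNAP25 differed most. SNAP25 encodes the plasma membrane SNARE of regulated neuronal secretion. Its signal was 8.45, 8.88 and 9.00 in manganese, against 10.22, 9.20 and 9.32 in control. Groups did not overlap, yet control 1 was about 1 unit above the other controls, which lay only a little above manganese 3. The change was -0.80 (SE 0.27, interval -1.43 to -0.17, limma adjusted p 0.326), the most negative of the 33 members, and -0.42 against control 2. A second SNAP25 probe set gave -0.49 with separate groups, and a dimmer one above the filter gave 0.08. The brightest is marked by its suffix as shared between transcripts, so other transcripts may add to its signal. The brightest probe sets of CPLX1, NSF, NAPA, DNAJC5, SNAP91 and SV2B carry the same suffix. Those of VAMP1, SNAP23 and SYPL1 are marked as open to cross-hybridisation.

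SNAP23, the relative of SNAP25 in cells without synapses, was below the filter. Its brightest probe set read 4.16, 3.97 and 3.68 in manganese, against 4.77, 4.50 and 4.35 in control. All 3 manganese arrays were below all 3 controls at a level close to background, and the next SNAP23 probe set showed the same order with -0.46, while the other 3, dimmer still, gave 0.02, 0.03 and 0.06, the last with separate groups on the higher side. By their brightest probe sets, all the remaining SNAREs but VAMP3 were within 0.1 of 0. STX1A, the plasma membrane syntaxin of neurons, differed by -0.04 (interval -0.34 to 0.26, and -0.18 against control 2). STX4, a syntaxin of general secretion, differed by -0.02 (-0.28 to 0.23, and -0.08 against control 2). For the vesicle SNAREs, VAMP1 differed by 0.0048 (-0.27 to 0.28, and -0.0040 against control 2) and VAMP2 by -0.08 (-0.40 to 0.24, and -0.31 against control 2). A second VAMP1 probe set above the filter gave -0.20 with separate groups on the lower side, or -0.27 against control 2. VAMP3, the VAMP of endosomal recycling, read 6.86, 6.92 and 7.16 in manganese, against 7.95, 6.83 and 7.17 in control. Controls 2 and 3 fell within or next to the manganese range and control 1 was far above it. The change of -0.34 (SE 0.26) therefore became 0.15 against control 2. A dimmer VAMP3 probe set above the filter gave 0.15 against all 3 controls, with overlapping groups.

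Of the 6 tested regulators and recyclers of SNARE complexes, none had an unadjusted p under 0.05 in limma, beside 12.8% of all tested genes. Separate groups were seen in 1 of the 6, NAPA, beside 19.7% of all tested genes. CPLX1, a complexin that clamps and then promotes fusion, read 7.70, 7.88 and 7.64 in manganese, against 7.48, 7.91 and 8.03 in control. The control range enclosed the manganese range, and the change was -0.07 (interval -0.44 to 0.31), or -0.17 against control 2. CPLX2 differed by 0.13 (-0.20 to 0.45), or 0.10 against control 2. STXBP5, encoding tomosyn, which competes with VAMP for syntaxin, was too dim, at 4.10 in manganese and 4.27 in control. NSF, the ATPase that separates SNARE complexes, read 7.38, 7.39 and 7.72 in manganese, against 8.21, 7.44 and 7.54 in control. Its change of -0.23 (SE 0.21) was at 0.06 against control 2, since control 1 alone was high.

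NAPA encodes alpha-SNAP, the adaptor that brings NSF to the complexes. It read 6.11, 6.03 and 5.99 in manganese, against 6.14, 6.20 and 6.33 in control. The groups were separate by a narrow gap, and the change was -0.18 (SE 0.11, adjusted p 0.490) and -0.16 against control 2. The 4 NAPA probe sets above the filter ranged from -0.18 to 0.06. NAPB, the brain-enriched beta-SNAP, differed by -0.36 (SE 0.25) and by -0.07 against control 2, with control 1 at 7.04 and the other arrays between 5.99 and 6.15. DNAJC5, which encodes cysteine string protein, a vesicle chaperone of SNAP-25, read 8.32, 8.33 and 8.32 in manganese, against 8.08, 8.40 and 8.49 in control. The manganese arrays were almost identical and sat inside the control range, with a change of 0.0030 (-0.29 to 0.30), or -0.07 against control 2.

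The synapsins and Rab3 genes leaned the other way. The 3 synapsins and the 3 tested Rab3 genes all had positive changes, with medians of 0.35 and 0.31, and of the membrane proteins SYP and SYPL1 were positive and SV2A was at -0.08. Against control 2 the medians were 0.16 for the synapsins, 0.11 for the Rab genes and 0.08 for the membrane proteins. No gene of these groups passed the test.

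SYN1 encodes synapsin I, the most abundant phosphoprotein of the vesicle surface. It read 8.67, 8.60 and 8.49 in manganese, against 7.92, 8.39 and 8.39 in control. Every manganese array was above every control, and control 1 was the lowest by a wide margin. The change was 0.35 (SE 0.15, interval 0.00 to 0.70, adjusted p 0.386), and 0.19 against control 2. SYN1 had 1 probe set.

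SYN2, encoding synapsin II, read 6.89, 6.77 and 6.87 in manganese, against 6.32, 6.68 and 6.47 in control. The groups were separate and control 2 was nearest to manganese. The change was 0.35 (SE 0.12, interval 0.07 to 0.63, adjusted p 0.332), and 0.16 against control 2. Its probe sets disagreed, since the 4 above the filter ranged from -0.31 to 0.35. SYN3, encoding synapsin III, differed by 0.07 (-0.27 to 0.41), or 0.13 against control 2, with manganese 1 alone above the rest.

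**Figure D3:**
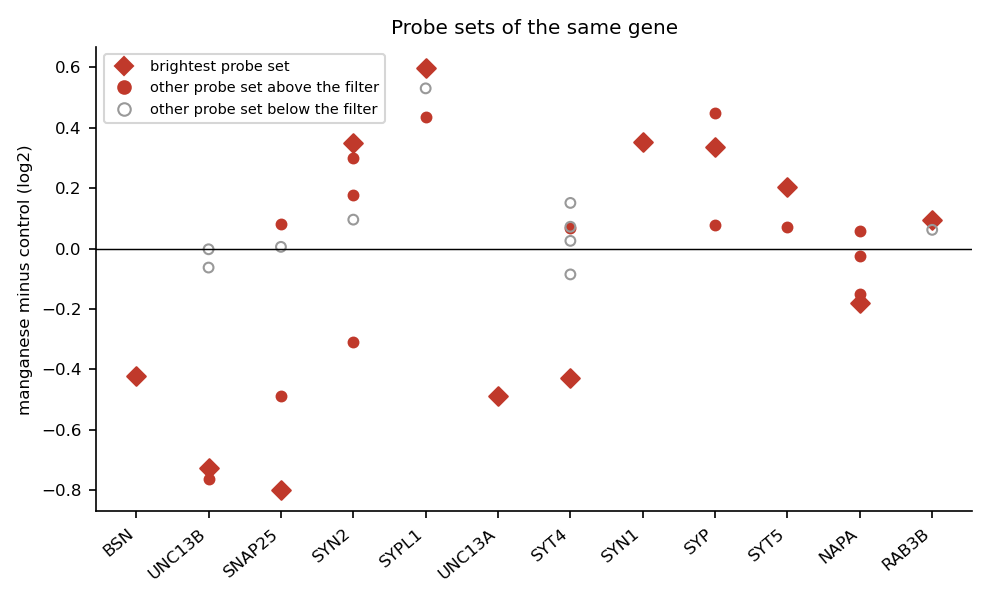
Change in log2 signal (manganese mean minus control mean, y axis) for every probe set of the 12 members with an unadjusted p under 0.05 or separate groups. Diamonds are the brightest probe set of a gene, filled circles other probe sets above the filter and open circles those below it. The 2 bright probe sets of UNC13B lie together at -0.73 and -0.76, while those of SYN2 span both signs.

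SYP encodes synaptophysin, a tetraspan protein of the vesicle membrane. It read 10.66, 10.70 and 10.66 in manganese, against 10.02, 10.59 and 10.40 in control. The exposed arrays agreed within 0.04 and lay just above control 2. The change was 0.34 (SE 0.15, adjusted p 0.405), and only 0.08 against control 2. The other SYP probe sets above the filter gave 0.08 and 0.45, both with overlapping groups. SYPL1, the synaptophysin-like protein of non-neuronal transport vesicles, read 6.71, 6.24 and 6.74 in manganese, against 6.33, 5.99 and 5.57 in control. Its groups overlapped because manganese 2 lay below control 1. The change was 0.60 (SE 0.21, interval 0.11 to 1.09, adjusted p 0.333), the most positive of the 33 members, and against control 2 it was nearly as large at 0.57. The SYPL1 probe sets gave 0.60, 0.44 (with separate groups) and 0.53, the last from a set below the filter, and the brightest is marked as open to cross-hybridisation. SV2A, the vesicle protein that binds the antiepileptic drug levetiracetam, differed by -0.08 (-0.34 to 0.18), or -0.14 against control 2, while a second SV2A probe set gave 0.25 with separate groups. SV2B at 3.65 in manganese and 3.63 in control, and SV2C at 4.13 in both groups, were below the filter.

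RAB3A encodes the main Rab3 GTPase of synaptic vesicles. It read 10.67, 10.56 and 10.48 in manganese, against 9.80, 10.57 and 10.21 in control. Control 2 fell inside the manganese range and control 1 was far below, so the change of 0.38 (SE 0.19, adjusted p 0.436) was -0.0044 against control 2. A second RAB3A probe set gave 0.39, or 0.02 against control 2. A dimmer one above the filter gave 0.27 with separate groups, or 0.17 against control 2. RAB3C, a close relative, read 7.48, 7.40 and 7.51 in manganese, against 7.49, 7.13 and 6.83 in control. Here control 1 was level with manganese and the other controls were lower, and the change was 0.31 (SE 0.17, adjusted p 0.457) and 0.33 against control 2. RAB3B, at 4.42, 4.52 and 4.48 in manganese, against 4.37, 4.37 and 4.40 in control, had separate groups with a change of only 0.10, or 0.11 against control 2, and a level at the edge of background. RAB27B, a Rab of secretory granules, was at 2.97 in manganese and 2.81 in control, below the filter.

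**Figure D4:**
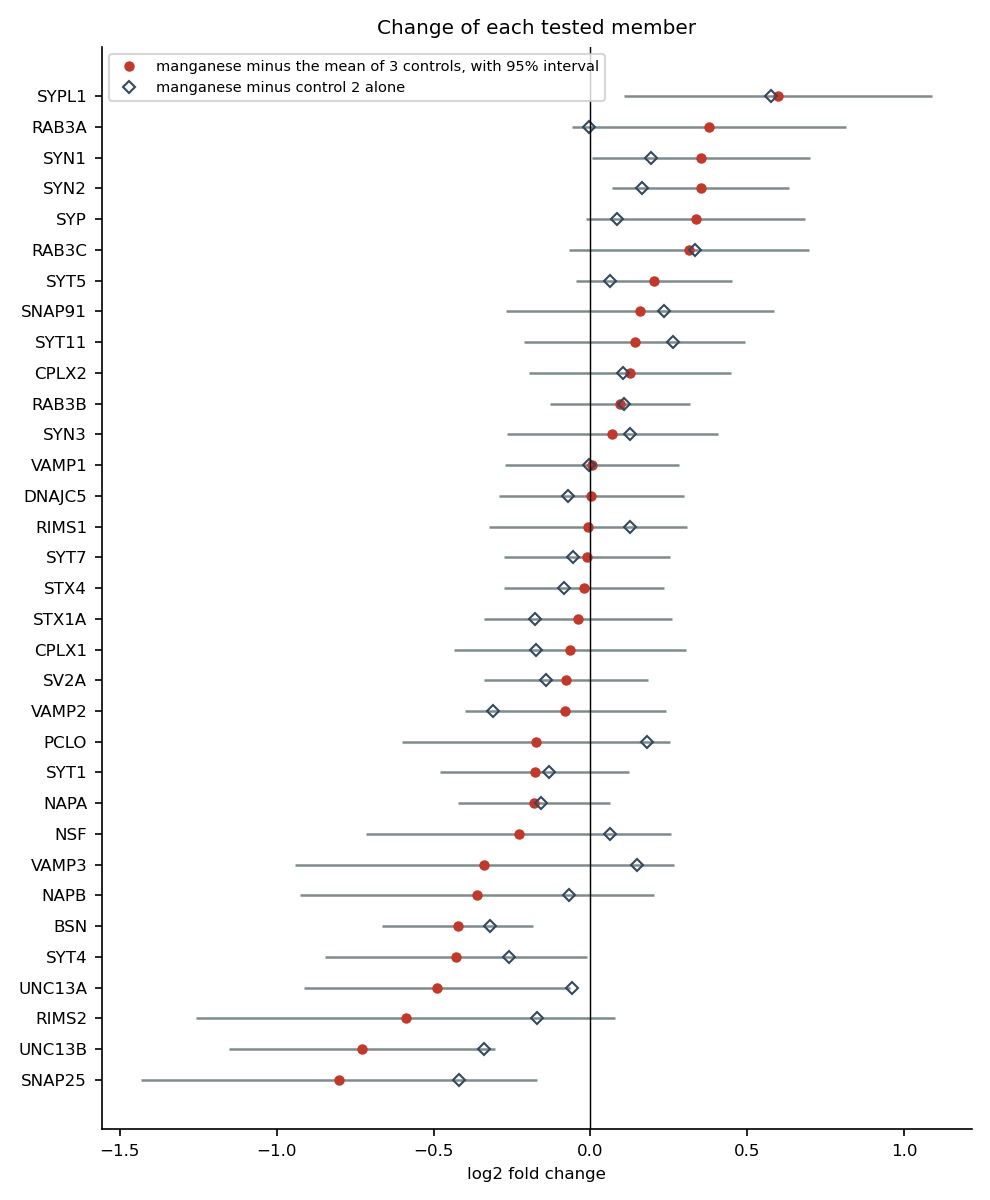
Log2 fold change of each tested member (rows, ordered by size). Filled points are manganese minus the mean of 3 controls, with the 95% interval from limma, and open diamonds are manganese minus control 2 alone. SNAP25 at -0.80 and SYPL1 at 0.60 are the ends of the range, and for RAB3A, VAMP3 and NAPB the diamond lies near or across 0.

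The synaptotagmins, the calcium sensors of the system, were mixed, with 2 of 5 positive and a median of -0.01. SYT4, an isoform that does not bind calcium at its first C2 domain and sits on dense-core granules, read 5.20, 4.51 and 4.84 in manganese, against 5.33, 5.11 and 5.40 in control. Its groups overlapped because manganese 1 lay above control 2. The change was -0.43 (SE 0.18, adjusted p 0.383), -0.26 against control 2, and a second probe set above the filter gave 0.07. SYT5 read 5.97, 5.92 and 5.94 in manganese, against 5.68, 5.88 and 5.66 in control. The groups were separate with control 2 nearly level, and the change was 0.20 (SE 0.11, adjusted p 0.458) and 0.06 against control 2. A second SYT5 probe set above the filter gave 0.07 with overlapping groups, or -0.04 against control 2. SYT1, the fast sensor of synaptic release, differed by -0.18 (interval -0.48 to 0.12), or -0.13 against control 2. SYT7, a slower, higher-affinity sensor, differed by -0.01 (-0.28 to 0.25), or -0.05 against control 2. SYT11, an isoform without calcium binding that acts in membrane retrieval, read 8.81, 8.76 and 8.83 in manganese, against 8.99, 8.53 and 8.45 in control. Control 1 was highest of all 6 arrays, and the change was 0.14 (-0.21 to 0.49), or 0.26 against control 2.

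SNAP91 encodes AP180, the clathrin assembly protein that retrieves vesicle membrane after fusion, and despite its symbol is no SNARE. It read 8.88, 8.79 and 9.07 in manganese, against 9.15, 8.68 and 8.44 in control. The controls spanned the manganese range, and the change was 0.16 (-0.27 to 0.58), or 0.24 against control 2.

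Members differed from each other in how the untreated arrays spread. The median SD of a member was 0.12 in manganese and 0.25 in control, against 0.11 and 0.19 for all tested genes. Control 1 was the control farthest from the middle of the 3 control values for 17 of the 33 members (51.5%), against 56.0% of all tested genes. The members that control 1 placed above all other arrays were SNAP25, VAMP3, UNC13A, UNC13B, NSF, NAPB, SYT11 and SNAP91. Those it placed below all others were SYP, SYN1, SYN2, SYN3, STX1A, VAMP1, VAMP2, CPLX1, CPLX2, RAB3A, RAB3B and DNAJC5. In neither set were SV2A, SYT1, SYT7, STX4, RIMS1, RIMS2, PCLO and RAB3C. The others in neither set, BSN, SYPL1, SYT4, SYT5 and NAPA, had an unadjusted p under 0.05 in limma or separate groups. Of these, BSN was at -0.42 and at -0.32 against control 2, SYPL1 at 0.60 and 0.57, NAPA at -0.18 and -0.16, SYT4 at -0.43 and -0.26, and SYT5 at 0.20 and 0.06.

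In further genes of the pathway, taken from 3 companion lists, 0 genes passed the test. Of 63 other exocytosis genes 48 were tested, 29 positive and 19 negative with a median of 0.09, and at an unadjusted p under 0.05 there were 8 higher (16.7%, against 5.98% of all tested genes) and 3 lower (6.25%, against 6.84%). The 2 with the smallest p were PPFIA4, a liprin scaffold, at 0.45 (adjusted p 0.219) and LIN7B, a scaffold that binds presynaptic CASK, at 0.70 (adjusted p 0.261), or 0.30 against control 2. PPFIA4 read 6.84, 6.80 and 6.67 in manganese, against 6.37, 6.18 and 6.41 in control, separate groups in which control 2 was the lowest array. Of 26 genes of vesicle endocytosis 24 were tested, with a median of 0.06 and 1 higher (4.17%, against 5.98%) and 0 lower (against 6.84%) at an unadjusted p under 0.05. CLTB, a clathrin light chain, was at 0.39 and AP2B1, an adaptor subunit, at -0.62, and against control 2 they were at 0.17 and -0.02.

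Of 10 vesicular transporter genes 8 were tested, 7 of them positive with a median of 0.12, and 2 were higher at an unadjusted p under 0.05 (25.0%, against 5.98% of all tested genes). SLC18A1 encodes VMAT1, which loads monoamines into the granules of neuroendocrine cells. It read 8.18, 7.91 and 8.14 in manganese, against 7.52, 7.65 and 7.50 in control. All manganese arrays were above all controls, and no control stood out. The change was 0.52 (adjusted p 0.188) and 0.42 against control 2, so its adjusted p was below that of every member. SLC18A3, the vesicular acetylcholine transporter, was at 0.40 (adjusted p 0.327) and at 0.17 against control 2.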

How the data were processed

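Per the submitters' processing notes, the authors used Expression Console to compute RMA values, deposited as log2 signals for 49395 probe sets on 6 arrays. The software version and scan dates were not in the labels or the deposited table, and probe-level intensities were not used here. RMA gives all arrays 1 distribution, so a shift shared by most genes is removed. Gene names came from the platform annotation (1 symbol for 44988 probe sets, several for 1832, 2473 unnamed, 102 Affymetrix controls). RefSeq GRCh38.p14 supplied chromosomes and promoters, and 34 of the 40 members matched a promoter. The brightest probe set stood for a gene and was kept if brighter than the lowest 40% of non-control probe sets on 3 or more arrays, which left 13403 genes. Groups were compared with limma 3.58.1 in R 4.3.3 (lmFit, eBayes, group as the only term, two-sided, Benjamini-Hochberg over 13403 genes). Log2 fold changes are manganese minus control. The fit was tested on simulated data with independent noise of the same spread in both groups. The median SD over all tested genes was 0.11 in manganese and 0.19 in control. The simulation therefore cannot show how the fit behaves on these arrays. Members described array by array had an unadjusted p under 0.05 or separate groups, or were the brightest of their role, and RIMS2, CADPS, SNAP23, VAMP3, NSF and RAB3C were added after their values were seen. In companion lists without a gene past the threshold, the 2 genes with the smallest p were named. Further priming and active zone genes from them were added after their values were seen. Members, lists and alternatives were chosen with earlier results of these data known. Array number limits precision, since arrays give no counting depth. Alternatives changed the filter, variance model, array weights, scaling, probe set rule, replicate block and arrays used.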

Additional observations from a re-analysis of the deposited data

How the results depend on the processing

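No member passed the threshold under 16 of 18 alternatives, but 17 passed with default array weights and 5 with gene-by-gene weights. Of the 16, the 4 that left out a manganese array or control 3 called 0 of all genes (813 to 1216 at an unadjusted p under 0.05 in limma), and the fit against control 2 alone took its spread from the manganese arrays only, so these 5 say nothing about stability. All genes past the threshold numbered 19, but 3948 and 792 with those weights, 50 with arrays centred on their median (38 higher), 41 with housekeeping centring (34 higher), 5 against control 2 alone, and 0 to 42 when 1 array was left out (42 without control 2). Members with an unadjusted p under 0.05 numbered 8, but 5 with the 60th percentile filter, 5 against control 2, 19 and 16 with weights, and 3 to 13 when 1 array was left out. Over all genes the share at that p was 12.8%, but 13.7% with that filter, 9.31% against control 2, 42.1% and 25.6% with weights, and 6.11% to 22.5% when 1 array was left out. Members with separate groups numbered 10, but 20 against control 2, and 11 to 18 when 1 array was left out. The share of all genes was 19.7%, but 56.9% against control 2 and 24.4% to 38.9% when 1 array was left out, since fewer arrays separate more easily. The median member change was -0.02, but -0.0696 and -0.0884 with weights, 0.0319 with housekeeping centring and -0.0715 to 0.0097 when 1 array was left out. Among 303 recomputed values of 17 members, 295 kept their direction and 1, SNAP91 without control 3, was at 0 to 4 decimals. The exceptions were RAB3A against control 2 (-0.0044), CPLX1 without 1 array (-0.23 to 0.0459) and DNAJC5, at -0.15 and -0.12 with weights, -0.0719 against control 2 and -0.12 to 0.0849 without 1 array. Why the other counts, the medians and the directions moved was not tested. With replicate number as a block, 6 genes and 0 members passed. Same-numbered arrays did not deviate together (r = -0.30, 0.15 and -0.27), and no array correlated best with its own number. Deviations from the mean of 3 arrays constrain each other, so these values cannot tell whether the numbers pair cultures. Gene-by-gene weights, the counts of members by unadjusted p or by separate groups, and the use of the brightest probe set above the filter (19 genes past the threshold) were chosen after seeing the data. Low signal limits what can be said of the 7 dim members.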

Other observations

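Of the SYN2 probe sets, 1 had separate groups on the higher side and 1 on the lower side. The brightest was 0.35 higher in manganese, and another above the filter was at -0.31, with readings of 5.70, 5.73 and 5.66 in manganese, against 6.47, 5.78 and 5.77 in control. Against control 2 the pair stood at 0.16 and -0.09. The annotation does not say which transcript each one reads.

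The most negative values of dim members were those of CADPS at -0.90 and SNAP23 at -0.60, both with separate groups and both left out of the test by their level. Against control 2 alone they were at -0.28 and -0.56.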
